A study of Rattus norvegicus with 46 samples.

Results

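Lungs of silica-exposed rats were compared between 1 day and 6 months after inhalation of the dust, to follow how the exposed lung changed from its early to its late state. The comparison takes the 6 silica lung libraries of each time, 12 of the 46 samples of the series, and matches genes by the identifiers in the tables of both times. Libraries 30 and 31 of the 6-month group were nearly identical and were averaged, which left 11 libraries, 6 early and 5 late. All rats were male Fischer 344, an inbred laboratory strain, and the series title calls them aged. Their ages were not among the labels. Silica rats breathed Min-U-Sil 5, a milled quartz dust of breathable size (crystalline silica), by whole-body inhalation at 15 mg/m3, 6 hours a day for 5 days, and air rats breathed filtered air in the same way. Lung tissue was taken 1 day or 6 months after exposure, and stranded libraries were made from its polyadenylated RNA. Every late rat was therefore also 6 months older than it had been at exposure, and the late libraries stand in a separate deposited table. Time after exposure, age and any difference between runs cannot be told apart in these libraries. In whole lung, fewer cells of a type and less RNA per cell cannot be told apart either.

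Inhaled quartz settles in the alveoli, where macrophages take it up and cannot digest it. Damaged macrophages release their contents, and the particles are taken up again, so inflammation continues long after the dust has stopped. Chronic silicosis is known for lipid-laden macrophages, proteinaceous alveolar fluid rich in surfactant, lymphocyte gathering, antibody and complement production, and fibrous nodules. The genes below are ordered by these roles, from epithelial and macrophage products through immune cells to matrix, vessels and clock.

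Silica library depth was 14803113 to 24369652 counts. The top 10 genes held 7.39% to 12.7% of each library, and ribosomal protein genes held 2.54% to 4.22%. The lung markers Scgb1a1, a club cell secretory protein, and Ager, a receptor of alveolar type 1 cells, were abundant in every silica library, at 3810 to 8630 and 1570 to 2750 CPM (gene counts scaled to a common library total and between libraries). Early silica libraries resembled each other: when 2 of them were set against each other gene by gene (chi-square test of counts), 22.8% to 37.9% of genes differed at p under 0.05 within a pair, where sampling alone gives 5%. Libraries 30 and 31 differed in 10.2% of genes. Late libraries were more unlike each other, with 57.3% to 74.2% of genes differing in pairs that held library 33 and 36.8% to 59.6% in the other late pairs. Library 33 stood farthest from the rest on the map of distances between libraries, followed by library 35. Natural killer cell genes were high in 1 library of each time, with a mean of 1.22 log2 CPM above the early mean in library 10 and 1.58 above it in library 30-31, against -0.72 to 0.33 in the other 9. Cell-cycle genes were highest in the same libraries, at 0.42 and 0.67 above the early mean.

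**Figure D1:**
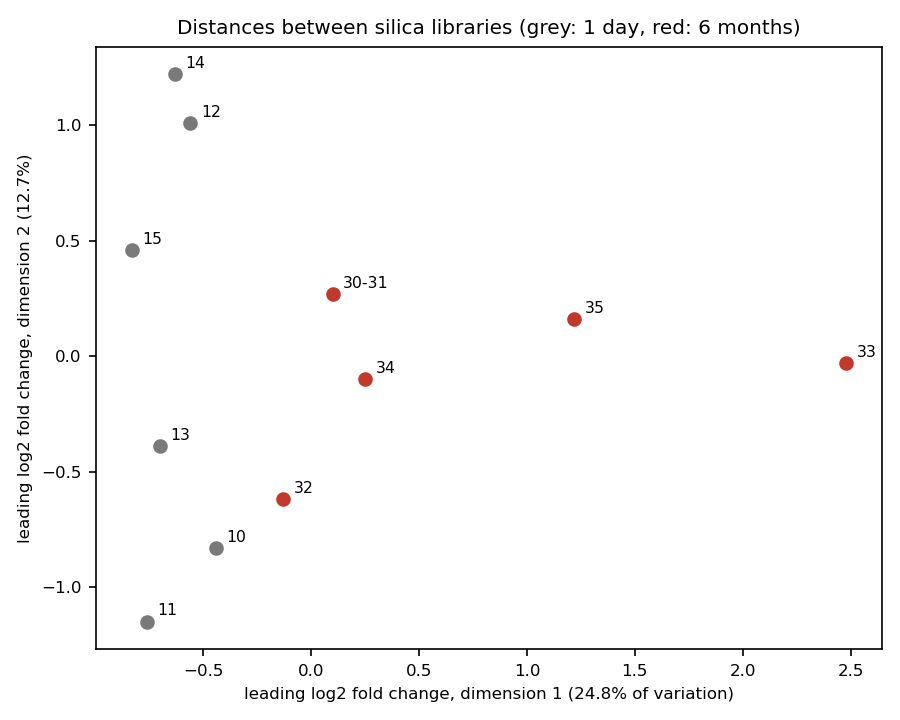
Distances between the 11 silica lung libraries over the 500 most variable genes of each pair, as leading log2 fold changes on both axes, with 24.8% of the variation on the first and 12.7% on the second. Grey points are 1-day and red points 6-month libraries, numbered as in the titles; the early libraries lie between -0.83 and -0.44 on the first axis and the late ones between -0.13 and 2.48, with library 33 farthest out.

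Of 15734 genes tested between the times in silica lungs, 692 passed an adjusted p of 0.05 (edgeR's quasi-likelihood test, Benjamini-Hochberg adjusted), which is 4.4%. Of these, 362 were higher at 6 months (2.3%) and 330 were lower (2.1%). The median log2 difference over all tested genes was 0.01. In 1093 of the 15734 genes the groups did not overlap, with every late library above or below every early one. Large changes ran mostly upward. At least 2-fold, 106 genes rose and 15 fell, and at least 4-fold, 40 rose and 1 fell. The number of calls moved with single libraries: it was 188 without early library 11, 208 without 14, 213 without 15, 235 without 13, 322 without 12, 250 without late library 34, 282 without 35 and 1572 without late library 30-31. Without library 33 it was 807, and without 10 and 30-31 together (chosen after seeing the data) it was 1133. Of the 131 genes named by a set rule that passed, 55 kept the threshold whichever single library was left out and 74 lost it for at least 1, with none changing sign and a highest adjusted p of 0.12. The other 2, Atp8b3 and Clec4f, kept it in the 6 and 10 of 11 leave-outs in which they passed the filter on low counts. Genes said below to have held are those 55. The groups overlapped in 42 of the 131, so separate groups were usual among genes named for passing.

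The largest rise was that of lactoperoxidase, Lpo. This secreted enzyme of airway surface liquid oxidises thiocyanate with hydrogen peroxide to kill microbes. Early silica libraries had 2.21, 3.3 and 5.69 CPM of Lpo (lowest, median and highest), and the late ones had 205, 277, 340, 279 and 272 CPM in libraries 30-31, 32, 33, 34 and 35. The groups were far apart, and the late libraries lay close together, library 33 included. Its log2 difference was 6.27 ± 0.21 (SE), with an adjusted p of 1.98e-08, and it held. In air lungs Lpo was at 0.353 to 0.633 CPM early and at 0.778 and 1.36 CPM late.

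Other parts of the same system were also higher late in silica lungs. In this list Lpo alone passed for the difference between silica and air, and Slc26a4 did not. Of 6 tested genes in the list of pendrin, lactoperoxidase and dual oxidases, 4 rose and 0 fell, with a median log2 difference of 0.86 against 0.01 over all genes. Slc26a4 (pendrin), an anion exchanger that carries thiocyanate and iodide, rose from 49.7, 68.4 and 79.4 CPM to 74.9, 157, 235, 214 and 155 CPM, a log2 difference of 1.34 ± 0.24 (adjusted p 0.0145), and it held. Only library 30-31 of the late group reached down into the early range. Duoxa1, the maturation factor of dual oxidase 1, rose by 0.93 and Duox1, the hydrogen peroxide source itself, rose by 0.78. Both groups overlapped for each of these, and each lost the threshold in 7 of the 11 leave-outs, with a highest adjusted p of 0.0811 and 0.0799 without early library 15. The counts of Duox1 were not whole numbers in any lung sample, which is how reads divided among targets appear, so its level is uncertain. Duox2 at -0.19 (95% interval -0.85 to 0.47) and the chloride channel Cftr at -0.14 (-0.45 to 0.17) did not pass.

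**Figure D2:**
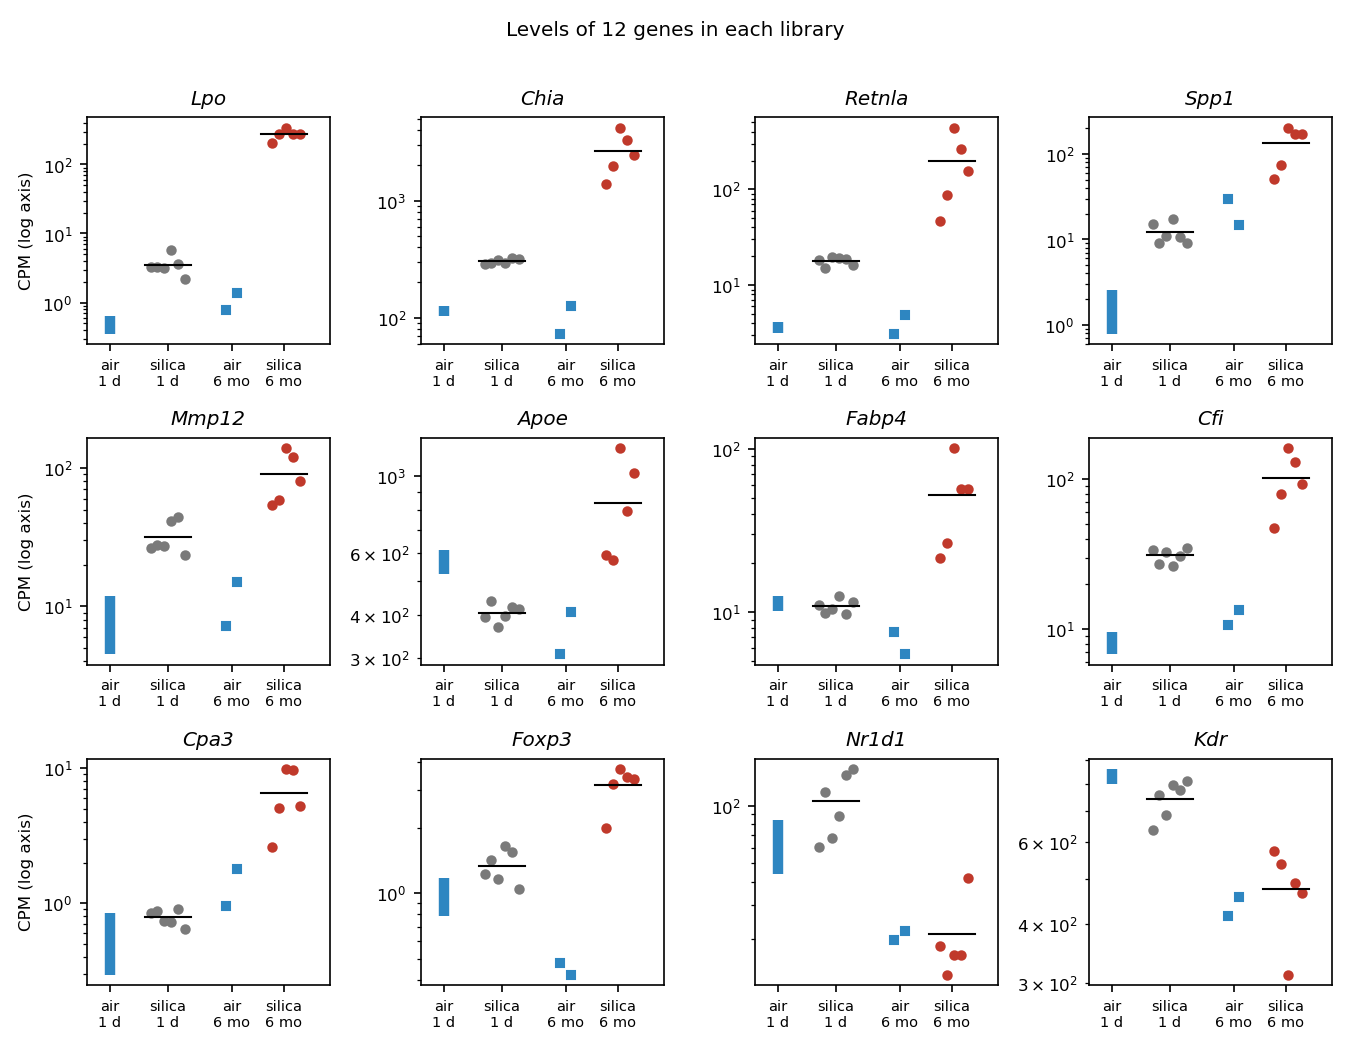
Levels of 12 genes in CPM on a log axis, with 1 point for each silica library (grey at 1 day, red at 6 months, the late points ordered from library 30-31 to 35), a black line at each silica mean, a blue bar from the lowest to the highest of 4 early air libraries and blue squares for the 2 late air libraries. Lpo stands at 2.21 to 5.69 CPM in the early and 205 to 340 CPM in the late silica lungs, and Nr1d1 and Kdr are the 2 genes shown that fell.

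Products of alternatively activated macrophages and of the distal epithelium also rose. Of 10 tested genes in the chitinase and alternative activation list, 4 rose and 0 fell, with a median of 0.43. Chia, an acidic chitinase secreted in the alveoli, was already at 287, 303 and 323 CPM in early silica lungs, and reached 1390, 1980, 4200, 3300 and 2470 CPM late. No late library came near the early ones, and library 33 was the highest. Its log2 difference was 3.14 ± 0.24, with an adjusted p of 7.54e-05, and it held. Air lungs had 104 to 125 CPM early and 72.9 and 126 CPM late. Retnla, a small secreted protein induced by interleukin 4 and 13, went from 15.1, 18.6 and 19.5 CPM to 46.5, 88.1, 439, 264 and 154 CPM, a log2 difference of 3.48 ± 0.49 (adjusted p 0.00642) that held. Its late values spread widely, with library 33 highest and library 30-31 lowest, but none overlapped the early range. Alox15, a lipoxygenase of macrophages and epithelium, rose from 5.63, 7.96 and 9.49 CPM to 36.6, 17.6, 15.4, 14.1 and 18.6 CPM, by 1.41 ± 0.25 (adjusted p 0.013), and held. Library 30-31 stood above the other late libraries. Air lungs had 18.8 to 20.8 CPM of Alox15 early, so the late silica level in 4 of 5 libraries was below the highest early air level. Il4r, the interleukin 4 receptor chain, rose by 0.25 and lost the threshold in 8 leave-outs (highest adjusted p 0.0895 without early library 15). Chi3l1, a chitinase-like protein without enzyme activity, was at 0.69 (0.29 to 1.1) and Arg1, arginase of alternatively activated macrophages, at 0.61 (0.25 to 0.97), and neither passed, with adjusted p of 0.0767 and 0.0771. The scavenger receptor Cd163 was at -0.61 (-1.01 to -0.21) without passing.

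Genes of lipid-associated macrophages, the foamy cells that fill with lipid and debris, were higher late. Of 18 tested, 8 rose and 0 fell, with a median of 0.51, and without library 33 it was 7 with a median of 0.4. Spp1 (osteopontin, a secreted adhesion protein of activated macrophages) was at 9.14, 10.8 and 17.6 CPM early and at 51.5, 74, 203, 172 and 172 CPM late. All late libraries lay above all early ones. Its log2 difference was 3.48 ± 0.36 (adjusted p 8.5e-04), and it held. Air lungs moved as far: Spp1 was at 0.789 to 2.53 CPM early and at 30.1 and 14.7 CPM late, a log2 difference of 3.89, and the difference between silica and air, -0.43, did not pass (adjusted p 0.684).

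Fabp4, a fatty acid carrier of alveolar macrophages and adipocytes, took the other course. It rose in silica lungs from 9.68, 10.8 and 12.6 CPM to 21.4, 26.6, 101, 56.5 and 57.2 CPM, by 2.28 ± 0.34 (adjusted p 0.00745), and held. In air it was at 10.1 to 12.5 CPM early and 7.6 and 5.52 CPM late, and the time difference in silica exceeded that in air by 3.06 (adjusted p 0.00161). Mmp12, macrophage elastase, rose from 23.6, 27.5 and 44.6 CPM to 54.2, 58.9, 139, 121 and 80.6 CPM, by 1.52 ± 0.27 (adjusted p 0.0146), and held. For Mmp12 the difference between silica and air did not pass. Apoe, a lipid carrier secreted by macrophages, rose from 369, 405 and 438 CPM to 592, 572, 1200, 794 and 1020 CPM, by 1.05 ± 0.18 (adjusted p 0.0109), and held. Neither gene overlapped between the times. Early silica lungs were below the early air lungs in Apoe, at 524 to 615 CPM in air. Gpnmb, Tyrobp, Plin2 and Mmp14 rose by 0.73, 0.60, 0.46 and 0.38, and each overlapped between the times and lost the threshold in 7 to 10 leave-outs (highest adjusted p 0.114, 0.0886, 0.0855 and 0.12, without library 15 except Tyrobp without 11). Trem2, the lipid receptor of these cells, was at 0.32 (-0.1 to 0.73), and Lgals3, galectin 3, at 0.68 (0.29 to 1.07), both without passing.

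Alveolar macrophage markers included 14 tested genes, of which 4 rose and 0 fell (median 0.41, and 4 of 14 again without library 33). Besides Fabp4, Siglec1, a sialic acid receptor, rose from 19.3, 20.7 and 25.3 CPM to 26, 57.9, 53.8, 82.8 and 42.3 CPM, by 1.31 ± 0.23 (adjusted p 0.0129). Library 30-31 lay just above the highest early library. Pparg, the lipid-sensing receptor that sets alveolar macrophage identity, rose by 0.81 ± 0.15 (adjusted p 0.0139), and both held. The cholesterol exporter Abcg1 rose by 0.41 and lost the threshold in 9 leave-outs (highest adjusted p 0.103 without library 15). Marco, a particle-binding scavenger receptor, was at 2.07 with a wide interval of 0.74 to 3.4 and did not pass. Among 13 scavenger receptors 3 rose and 0 fell. Cd5l, a secreted macrophage survival protein, rose from 0.103, 0.626 and 0.989 CPM to 4.01, 5.91, 5.99, 6.12 and 1.52 CPM, by 2.99 ± 0.43 (adjusted p 0.00642), without overlap. Olr1, an oxidised lipid receptor, rose by 0.73, and Clec7a, a beta-glucan receptor, by 0.61. Cd5l and Olr1 held, and Clec7a lost the threshold in 10 leave-outs (highest adjusted p 0.0937 without library 15). Acp5, the acid phosphatase of osteoclasts and giant cells, was the only 1 of 8 giant cell genes to pass, at 0.75, and lost the threshold in 7 (highest 0.0759 without library 15).

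Lysosome genes were mostly not called: 2 of 25 rose, Ctss (an antigen-processing protease, 0.88) and Laptm5 (a leukocyte lysosome protein, 0.46), and 0 fell, with a median of 0.24. Both lost the threshold in 6 or 7 leave-outs, with highest adjusted p of 0.0707 and 0.0683 without library 15. This list depended on library 30-31, without which 12 of 25 rose and the median was 0.33. Among 18 NRF2 targets and metallothioneins, genes of the oxidant response, 4 rose and 0 fell. Hmox1, heme oxygenase 1, went from 70.4, 78.1 and 79.8 CPM to 82.2, 123, 157, 136 and 136 CPM, by 0.74 ± 0.13 (adjusted p 0.013), without overlap, and it held. Ftl1 (ferritin light chain, 0.84) and Srxn1 (sulfiredoxin, 0.61) lost the threshold in 8 and 7 leave-outs, with highest adjusted p of 0.0811 and 0.0799 without library 15. The estimated counts of Ftl1 were not whole in any lung sample, so its level is uncertain.

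Complement genes rose in the late lungs, with 9 of 23 tested entries higher and 0 lower, a median of 0.38. The count was 8 without library 33 (median 0.26) and 14 without library 30-31 (median 0.44). The proteins span the alternative pathway (Cfb, Cfd, Cfp), the classical pathway (C1s, C2, C4b), its regulation (Cfi) and the lytic complex (C6). Cfi, the protease that inactivates C3b and C4b, rose from 26.4, 31.9 and 34.7 CPM to 47.3, 79.3, 161, 131 and 93.1 CPM, by 1.74 ± 0.25 (adjusted p 0.00691). C2, the protease part of the classical convertase, rose from 126, 137 and 149 CPM to 165, 267, 477, 351 and 356 CPM, by 1.25 ± 0.20 (adjusted p 0.0102). In both genes all late libraries lay above all early ones, with library 33 highest and 30-31 lowest. C4b rose by 1.05 ± 0.15 (adjusted p 0.00544) and Cfd, factor D, by 1.34 ± 0.24 (adjusted p 0.0145). These 4 held.

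Cfb, the alternative pathway protease, went from 1040, 1150 and 1200 CPM to 1290, 1830, 3420, 2570 and 2080 CPM, a log2 difference of 1.00 that lost the threshold in 4 leave-outs (highest adjusted p 0.0546 without library 34). C4a (1.19), Cfp (0.45), C1s (0.32) and C6 (0.54) lost it in 3, 4, 9 and 10 leave-outs, with highest adjusted p of 0.0625, 0.0663, 0.104 and 0.112. C4a, C4b and C1s had counts that were not whole in any lung sample, and C4a stands on a second identifier with a log2 difference of -0.83 (-3.12 to 1.45). C3, the central component, was at 1190, 1370 and 1460 CPM early and 1330, 1860, 2450, 2290 and 1680 CPM late, a difference of 0.54 (0.26 to 0.82) with an adjusted p of 0.0529 that missed the threshold.

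Among 12 acute-phase genes, plasma proteins made in inflammation, 4 rose and 0 fell (median 0.40, and 3 rose without library 33). Orm1, orosomucoid, rose from 1.65, 2.6 and 3.32 CPM to 35.3, 34.1, 31.5, 20.2 and 19.8 CPM. The late libraries were at 19.8 CPM or above and the early ones at 3.32 CPM or below. Its log2 difference was 3.51 ± 0.22 (adjusted p 1.54e-05), and it held. In air it was at 0 to 0.353 CPM at both times. A2m, a protease trap, rose by 2.003 on 94 early counts in all and lost the threshold in 9 leave-outs (highest adjusted p 0.102 without library 15). Lbp, the endotoxin-binding protein, rose by 0.66 and Fgg, a fibrinogen chain, by 0.63, and they lost it in 8 and 9 (highest 0.0907 and 0.101, without library 11). Lcn2, lipocalin 2, was at 0.15 (-0.33 to 0.64). Its sign turned to -0.13 without library 33.

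**Figure D3:**
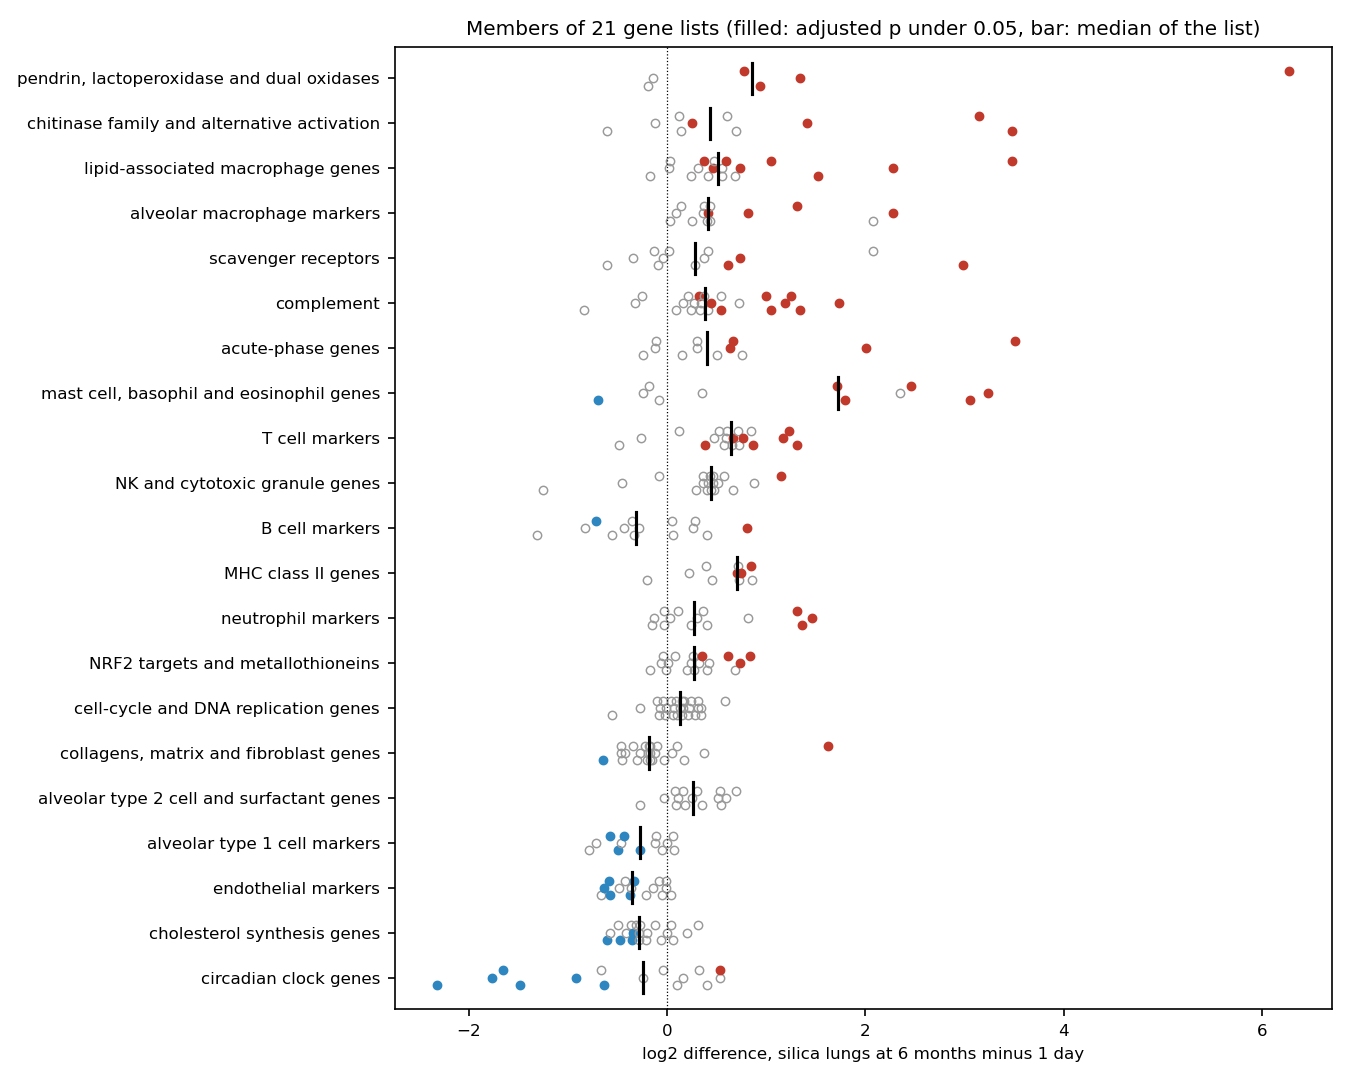
Log2 difference of each tested member of 21 gene lists, silica lungs at 6 months minus 1 day, with a black bar at the list median. Red and blue points passed an adjusted p of 0.05 upward and downward and open points did not; red points gather in the macrophage, complement and mast cell lists, blue points in the vessel, alveolar type 1, cholesterol and clock lists, and Lpo lies farthest out at 6.27.

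Mast cell genes gave the highest list median, 1.72. Of 11 tested genes of mast cells, basophils and eosinophils, 5 rose and 1 fell, and the counts were the same without library 33 and without library 30-31. Cpa3, mast cell carboxypeptidase, rose from 0.64, 0.787 and 0.904 CPM to 2.63, 5.04, 9.91, 9.74 and 5.26 CPM, by 3.06 ± 0.32 (adjusted p 7.44e-04). Tpsb2, a tryptase, rose from 0.245, 0.406 and 0.62 CPM to 1.43, 2.56, 8.19, 5.53 and 3.36 CPM, by 3.24 ± 0.43 (adjusted p 0.0046). Neither gene overlapped between the times. Cma1, a chymase, rose by 2.46 ± 0.36 (adjusted p 0.00642), on 25 early and 131 late counts. Ms4a2, a chain of the high-affinity IgE receptor, rose by 1.80 ± 0.31 (adjusted p 0.0129). All 4 held.

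Fcer1a, the IgE-binding chain of the same receptor, rose by 1.72 and lost the threshold in 6 leave-outs (highest adjusted p 0.0797 without library 34). Kit, the stem cell factor receptor, is on mast cells but in lung is also expressed by endothelial cells. It fell from 240, 272 and 325 CPM to 216, 207, 98.5, 180 and 150 CPM, by 0.70 on the log2 scale, and lost the threshold in 8 leave-outs (highest adjusted p 0.104 without library 35). Mcpt10, a granule protease, was outside the list and among the smallest p-values. It rose from 0.815, 1.13 and 1.29 CPM to 4.86, 3.59, 7.42, 4.85 and 3.23 CPM, by 2.11 ± 0.22 (adjusted p 7.44e-04), and held. Its counts were not whole in any lung sample. Air lungs also rose in Mcpt10, to 31.7 and 5.28 CPM. The eosinophil receptor Ccr3 was at 0.36 (0.01 to 0.7) and did not pass, nor did the histamine enzyme Hdc at -0.24 (-0.41 to -0.06).

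T cell markers rose. Of 19 tested, 7 were higher and 0 lower (median 0.65), with 5 without library 33, 12 without 30-31 and 7 without both 10 and 30-31. Foxp3, the master factor of regulatory T cells, went from 1.05, 1.32 and 1.65 CPM to 2, 3.18, 3.74, 3.43 and 3.36 CPM, by 1.23 ± 0.19 (adjusted p 0.00745). Cd8b, a co-receptor of cytotoxic T cells, went from 2.07, 2.5 and 3.04 CPM to 3.09, 5.16, 4.87, 4.99 and 5.01 CPM, by 0.87 ± 0.16 (adjusted p 0.0149). The groups did not overlap in either gene, with library 30-31 the lowest late library of both, and both held. Ctla4 (1.31), Cd2 (1.17), Icos (0.76), Cd5 (0.67) and Cd4 (0.38) lost the threshold in 6 to 9 leave-outs, with highest adjusted p between 0.0663 (Icos) and 0.105 (Ctla4). Cd2 was highest in library 30-31, at 43.2 CPM against 12 to 23.2 CPM in the other late libraries. Cd3e, an invariant chain of the T cell receptor, was at 0.58 (0.22 to 0.94) without passing. Tcf7 and Lef1, factors of naive T cells, were at -0.26 and -0.48 without passing.

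Natural killer and cytotoxic granule genes were not called except for Ctsw (cathepsin W, 1.15), 1 of 18 tested, with a median of 0.44 that fell to 0.01 without library 30-31. Ctsw lost the threshold in 6 leave-outs (highest adjusted p 0.071 without library 15). Among 14 tested B cell markers the median was -0.31. Cd72, a B cell inhibitory receptor also found on macrophages, rose by 0.80 and lost the threshold in 8 leave-outs (highest adjusted p 0.0859 without library 15). Mzb1, an endoplasmic reticulum protein of antibody-secreting cells, rose from 1.62, 3.06 and 4 CPM to 3.66, 8.47, 11.2, 8.66 and 11.6 CPM, by 1.57 ± 0.29 (adjusted p 0.0149), and held. It was the only 1 of 10 plasma cell genes to pass, and without library 30-31 there were 5. In the 12 tested genes of tertiary lymphoid tissue, 0 rose and 0 fell (median 0.05). Cxcl13, the B cell follicle chemokine, was at 0.96 (-0.11 to 2.03).

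MHC class II genes, which present antigen, had a median of 0.71, and 3 of 10 rose with 0 lower. The 3 were RT1-Db1 (0.84), RT1-Da (0.75) and RT1-Bb (0.70), each with 8 leave-outs below the threshold and highest adjusted p of 0.102, 0.106 and 0.0968 without library 15. RT1-Da stood at 476, 523 and 573 CPM early and at 501, 700, 1320, 914 and 884 CPM late. Library 30-31 was within the early range and library 33 well above the others. Without library 30-31, 7 of 10 passed. The dendritic cell list had 3 of 12 higher and 0 lower. Irf8, a factor of dendritic cells and monocytes, rose by 0.47 ± 0.09 (adjusted p 0.0139) and held, but not in a fit with the air lungs (0.46, adjusted p 0.232). Cd86 (0.75) and Itgae (0.47) rose and lost the threshold in 7 and 9 leave-outs (highest 0.0859 and 0.102 without library 15). Monocyte markers had 2 of 12 higher: Fcna, a ficolin (0.79, which held), and Ms4a7 (0.97, lost in 9, highest 0.0891 without library 35).

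Chemokines that stood high in early silica lungs were not called lower late. Of 10 monocyte-attracting chemokines, 1 rose and 0 fell. Ccl2 was at 24.5, 32.4 and 39 CPM early and at 21.4, 32.7, 65, 54.3 and 38.2 CPM late, against 1.88 to 4.18 CPM in early and 2.51 and 5.33 CPM in late air lungs. Its difference of 0.39 (-0.09 to 0.87) did not pass. Ccl7 was at 0.96 (0.33 to 1.58) without passing. Ccl4 rose by 0.46 and lost the threshold in 8 leave-outs (highest adjusted p 0.0989 without library 11). Of 6 neutrophil chemokines and receptors, 0 passed in either direction. Cxcl1 had 58.9, 71.1 and 99.2 CPM early and 41.1, 48.5, 68.7, 53 and 53.3 CPM late, a difference of -0.50 (-0.79 to -0.21) with an adjusted p of 0.0772. Cxcl6 was at 37.1, 56.2 and 75.9 CPM early and 43.4, 54.6, 85.4, 82.4 and 64.8 CPM late, with 0.25 (-0.19 to 0.69). Air lungs had 2.3 to 5.69 CPM of Cxcl6 early and 2.33 and 2.62 CPM late.

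In the 16 chemokines of lymphocytes, eosinophils and dendritic cells, 3 rose and 0 fell. Ccl1, a ligand of Ccr8 on regulatory and type 2 T cells, was nearly absent early, with 7 counts over 6 libraries and 3 libraries at 0, and had 139 counts over the 5 late libraries. Its late levels were 0.916, 1.03, 2.14, 1.37 and 2.16 CPM, and its log2 difference was 4.29 ± 0.59 (adjusted p 0.00544), which held. Cxcl9, an interferon-induced T cell chemokine, rose from 12.6, 14 and 15.2 CPM to 15.5, 24.4, 30.8, 27.4 and 40 CPM, by 0.98, and lost the threshold in 1 leave-out (0.0504 without library 11). Cxcl16 rose by 0.34 and lost it in 8 (highest 0.0818). Among 24 interferon-stimulated genes only Gbp2 passed, at 0.34, and it lost the threshold in 10 (highest 0.105).

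Neutrophil markers rose in 3 of 14 tested genes and fell in 0. S100a9, a subunit of the calprotectin complex of neutrophils and monocytes, went from 299, 329 and 473 CPM to 504, 764, 1850, 1090 and 595 CPM, by 1.47 ± 0.30 (adjusted p 0.0237). S100a8, its partner, rose by 1.36, and Ngp, a neutrophil granule protein, by 1.31. No late library of S100a9 or S100a8 overlapped the early ones, and library 33 was the highest. These 3 lost the threshold in 4, 6 and 5 leave-outs, with highest adjusted p of 0.0644, 0.0792 and 0.0759 without library 15. The receptors Csf3r and Cxcr2 were at -0.03 (-0.39 to 0.33) and -0.15 (-0.49 to 0.2). Of 12 tested inflammatory cytokines, Il1rn, the interleukin 1 receptor antagonist, rose from 52.1, 55.5 and 69.8 CPM to 70.6, 118, 117, 111 and 109 CPM, by 0.88 ± 0.13 (adjusted p 0.00642), and held. Il1b, the agonist, was at 0.27 (0 to 0.54). Csf2, the growth factor of alveolar macrophages, fell by 0.97 on the log2 scale and lost the threshold in 5 (highest 0.0724 without library 34).

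**Figure D4:**
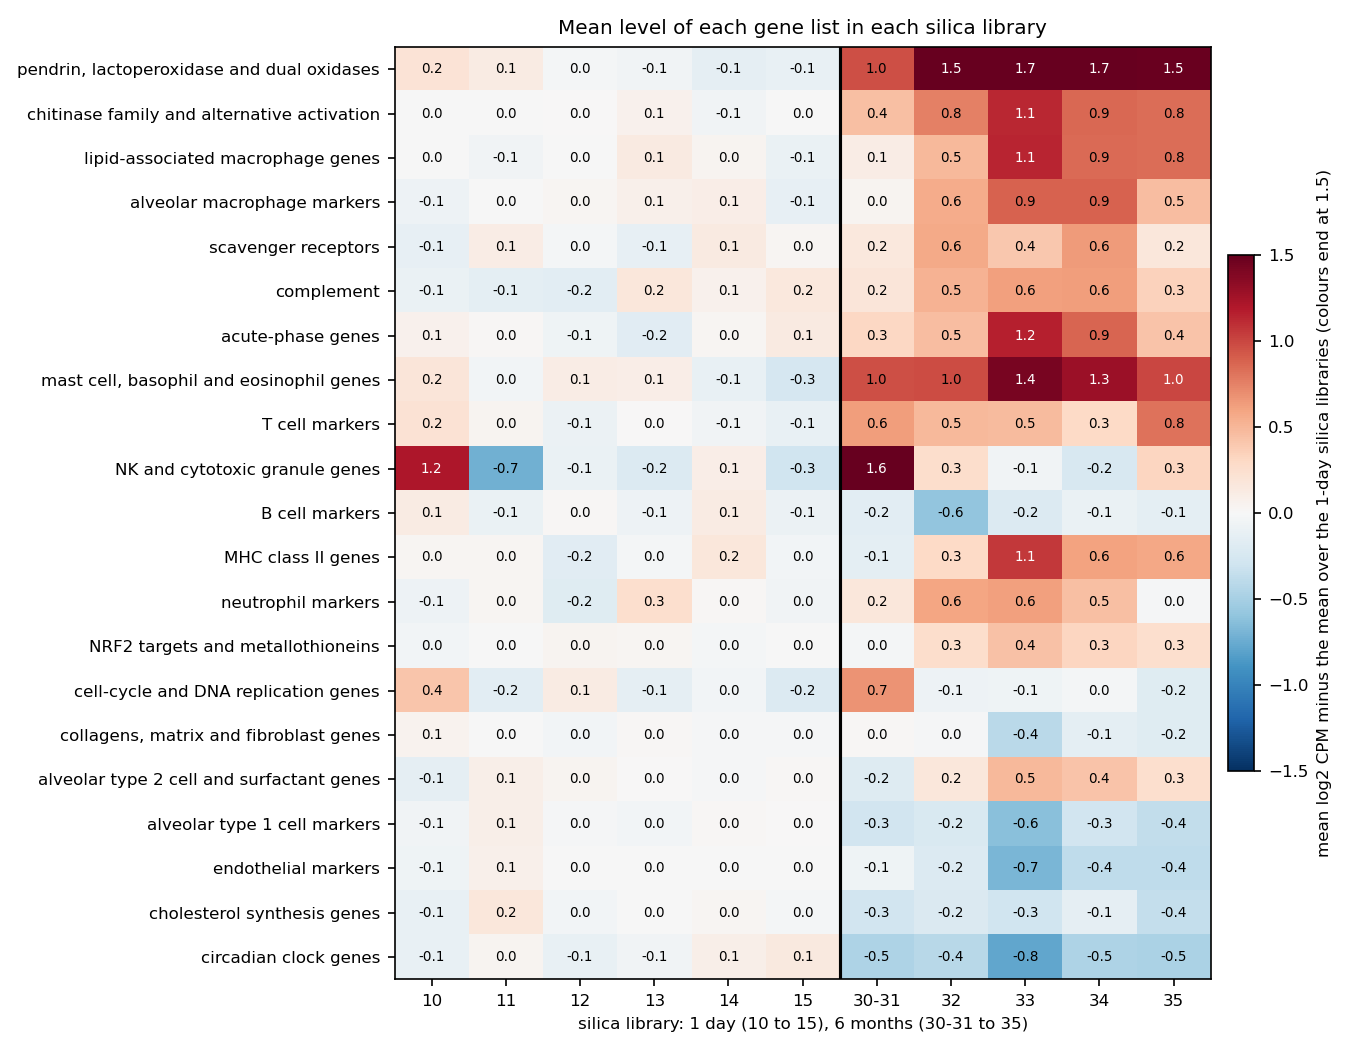
Mean log2 CPM of each of 21 gene lists in each silica library, minus the mean over the 1-day silica libraries, with early libraries left and late ones right of the line and colours that end at 1.5. The lactoperoxidase and mast cell lists are above the early mean in all 5 late libraries (0.96 to 1.72), the clock list is below it (-0.78 to -0.42), and the natural killer list is high in libraries 10 and 30-31.

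Enzymes of lipid mediators had 3 of 15 higher and 0 lower. Alox12, 12-lipoxygenase, rose from 6.87, 7.03 and 9.37 CPM to 14.3, 16.8, 20.5, 15.6 and 18.7 CPM, by 1.23 ± 0.12 (adjusted p 4.38e-04), and held. In air it fell, to 3.35 and 3.93 CPM from 6.01 to 8.29 CPM, and the time difference in silica exceeded that in air by 2.16 (adjusted p 4.8e-05). Lta4h, which makes leukotriene B4, rose by 0.49 and lost the threshold in 8 (highest 0.0958 without library 35). Of 15 matrix proteases and inhibitors, 3 rose and 0 fell: Mmp12, Mmp14 and Mmp7 (matrilysin, 2.03). Mmp7 rested on 62 early counts, overlapped between the times and lost the threshold in 9 (highest 0.113 without library 15). Timp1, the main inhibitor, was at 0.41 (0.1 to 0.71) without passing.

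Matrix genes did not rise as a group. Of 24 tested entries of collagens, matrix and fibroblast genes, 1 rose and 1 fell, with a median of -0.18. Col1a1, the main chain of type I collagen, was at 146, 158 and 173 CPM early and at 202, 162, 132, 148 and 171 CPM late. The groups overlapped, and its difference of 0.05 (-0.14 to 0.24) turned to -0.04 without library 30-31. Col3a1 stood at 502, 553 and 673 CPM early and 633, 671, 577, 557 and 627 CPM late, a difference of 0.10 (-0.08 to 0.29). Thbs2, thrombospondin 2, a matrix glycoprotein that regulates collagen fibrils, was the gene that rose, from 3.32, 4.13 and 4.71 CPM to 12.2, 16.1, 9.26, 12.8 and 10.7 CPM, by 1.63 ± 0.15 (adjusted p 3.6e-04), and it held. For Thbs2 the difference between silica and air did not pass. Library 33, the highest late library for Apoe, Fabp4 and Mmp12, was here the lowest. Pdgfra, the receptor that marks alveolar fibroblasts, fell by 0.64 and lost the threshold in 8 leave-outs (highest 0.0965 without library 35). Postn at -0.30 (-0.46 to -0.14) and Fn1 at -0.22 (-0.52 to 0.07) did not pass. Among 10 smooth muscle and myofibroblast genes, Myh11 alone fell, by 0.44 (lost in 7, highest 0.0938), and Acta2 was at -0.20 (-0.45 to 0.05). Of 13 growth factors of repair, Pdgfb alone fell, by 0.44 (lost in 9, highest 0.102), and Tgfb1 was at 0.35 (0.17 to 0.53) without passing.

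Alveolar type 2 cell and surfactant genes had 0 of 15 passing in either direction, with a median of 0.26. Sftpd, a surfactant collectin, was at 1050, 1130 and 1280 CPM early and 1000, 1540, 2720, 1970 and 1870 CPM late, a difference of 0.69 (0.31 to 1.07) with an adjusted p of 0.0627. Library 30-31 lay below the early range, and without it 7 of 15 genes of the list rose. Alveolar type 1 markers fell in 4 of 13 and rose in 0 (median -0.27, and 5 fell without library 33). In air lungs 10 of these genes were called lower and 0 higher (median -0.78). The difference between silica and air passed with a positive sign for 7, a smaller fall or a rise in silica. Cav1, caveolin 1 of thin alveolar and endothelial membranes, fell from 1220, 1310 and 1380 CPM to 1060, 1020, 882, 868 and 984 CPM, by 0.43 ± 0.07 (adjusted p 0.0129), without overlap, and it held. Its log2 difference in air was -0.47, and the difference between silica and air, 0.03, did not pass (adjusted p 0.893). Spock2 (a matrix proteoglycan) fell by 0.58, Limch1 (an actin-binding protein) by 0.49 and Emp2 (a membrane protein) by 0.27, and they lost the threshold in 8, 8 and 7 leave-outs (highest 0.0942, 0.0975 and 0.0825). Ager was at 0.07 (-0.2 to 0.34). Of 14 genes of the transitional epithelium, cells between the alveolar types, 3 rose: Sfn (0.85), Plaur (the urokinase receptor, 0.80) and Cdkn1a (a cell-cycle inhibitor, 0.51). They lost the threshold in 9, 4 and 6 (highest 0.0936, 0.059 and 0.0739). The airway secretory gene Bpifb1, an antimicrobial protein, rose by 1.94 and lost it in 5 (highest 0.0573 without library 15), the only 1 of 11 in its list.

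Endothelial markers fell in 5 of 16 and rose in 0, with a median of -0.35 (5 again without library 33, median -0.27, and 8 without 30-31). Kdr, the main receptor of vascular endothelial growth factor, fell from 637, 766 and 810 CPM to 573, 539, 312, 490 and 466 CPM, by 0.63 ± 0.14 (adjusted p 0.0276). Ednrb, the endothelin B receptor of alveolar capillary cells, fell from 267, 315 and 337 CPM to 227, 241, 151, 200 and 201 CPM, by 0.58 ± 0.11 (adjusted p 0.0165). In both genes every late library lay below every early one, and library 33 was the lowest. Ednrb held. Kdr, Lyve1 (a hyaluronan receptor, which fell by 0.58), Aplnr (the apelin receptor, by 0.37) and Tie1 (an angiopoietin co-receptor, by 0.33) lost the threshold in 6, 5, 9 and 8 leave-outs (highest 0.0725, 0.0747, 0.104 and 0.0821). Pecam1, the general endothelial marker, was at -0.05 (-0.19 to 0.1). In list means against the early mean, lipid-associated macrophage genes and endothelial markers moved in opposite directions in the late libraries. Both moved most in library 33 (1.14 and -0.69 log2) and least in 30-31 (0.11 and -0.07). Alveolar macrophage markers stood equally high in libraries 33 and 34 (0.88 each), and scavenger receptors were highest in 34 (0.64, against 0.40 in 33). The part of these lists in each other's levels, as shares of one total, was not tested.

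Cholesterol synthesis genes fell in 4 of 21 and rose in 0 (median -0.28; 7 fell without library 33). Hmgcs1, which makes the precursor of mevalonate, fell from 94.3, 106 and 121 CPM to 75.2, 68.8, 61.3, 72.5 and 69.1 CPM, by 0.60 ± 0.08 (adjusted p 0.00391). Insig1, the sterol sensor that holds the pathway back, fell from 143, 162 and 183 CPM to 113, 116, 118, 115 and 113 CPM, by 0.48 ± 0.07 (adjusted p 0.00745). The late libraries were close together in both genes, with no overlap, and both held. Idi1, an isomerase of the same pathway, fell by 0.35 and lost the threshold in 10 leave-outs (highest adjusted p 0.11 without library 35). Insig1 was called lower in air too, at -0.352 to -0.204 over leave-outs, a call lost in 3 of 6. Its difference between silica and air did not pass. In air Hmgcs1 and Idi1 went the other way. Hmgcs1 was at 47.4 to 65 CPM in early and at 136 and 131 CPM in late air lungs, and the time difference in silica minus that in air was -1.86 (adjusted p 1.3e-05).

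Clock genes gave 4 of the 12 largest falls. The circadian clock is a loop in which Arntl and Clock switch on Per, Cry and Nr1d, whose products feed back to switch the loop off. Arntl and Clock also switch on the transcription factors Dbp and Tef. Of 15 tested, 6 fell and 1 rose, with a median of -0.24. Nr1d1 (Rev-erb alpha, a repressor of Arntl) went from 60.8, 103 and 156 CPM to 18.3, 13, 16.4, 16.5 and 41.7 CPM, by -2.31 ± 0.36 (adjusted p 0.008). Library 35 was the highest of the late libraries and still below the early ones. Dbp fell from 12.1, 19.5 and 35.9 CPM to 6.18, 4.96, 8.25, 5.78 and 7.87 CPM, by 1.76 ± 0.31 (adjusted p 0.013). Per3, a period gene, fell from 21.3, 26.4 and 38.1 CPM to 11.1, 9.66, 3.92, 10.8 and 8.25 CPM, by 1.65 ± 0.25 (adjusted p 0.00745). Nr1d2 fell from 79.5, 120 and 154 CPM to 46.5, 44, 26.4, 38.4 and 50.4 CPM, by 1.48 ± 0.20 (adjusted p 0.00501).

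Tef fell by 0.92 ± 0.13 (adjusted p 0.00642) and Cry2, a cryptochrome, by 0.63 ± 0.11 (adjusted p 0.0129). In all 6 the late libraries lay below the early ones, and all 6 held. Arntl, which Nr1d1 represses, rose from 27.4, 33.9 and 41.7 CPM to 54.4, 51.5, 44.2, 50.3 and 47.1 CPM, by 0.54 (adjusted p 0.0229), and lost the threshold in 3 leave-outs (highest 0.0633 without library 11). The 6 genes that fell were called lower in air lungs as well, though with 1 air library left out Dbp lost that call in 4 of 6 cases, Nr1d1 in 2, and Per3 and Cry2 in 1 (highest adjusted p 0.193, 0.0965, 0.0788 and 0.0517). Nr1d1 was at 43.9 to 83.7 CPM in early and at 19.8 and 22.1 CPM in late air lungs, and for none of these 7 genes did the difference between silica and air pass (adjusted p 0.25 to 0.942). The labels do not give the hour at which tissue was taken, so the time of day and the time after exposure cannot be told apart for these genes.

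Arntl and Clock bind the E-box CACGTG, the same letters on both strands. The promoters of the 7 clock genes that passed were searched for it because 6 of them fell together, while Arntl rose. All 7 genes that passed were matched to the RefSeq promoter table of build GRCr8, 300 bases each, from 250 before to 50 after the gene's start, with Arntl there under the symbol Bmal1. Of 8 promoter entries of the 7 genes, 2 held CACGTG, and 6.42% of all 33469 promoters did. The windows of 60 bases around each match, 5′ to 3′ on the gene's strand with the E-box in capitals, are from chr10:84229613-84229672 (minus strand) for the second start of Nr1d1 and from chr7:115206602-115206661 (plus strand) for Tef.
Nr1d1: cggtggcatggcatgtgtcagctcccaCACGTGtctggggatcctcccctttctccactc
Tef: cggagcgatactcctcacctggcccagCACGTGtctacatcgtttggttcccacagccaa
The E-box begins 191 bases before the start of Nr1d1's second entry and 198 before that of Tef. A match in these letters is a description of the sequence and does not show that a factor binds there, and the other entries lack the letters only in this window.

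Outside the lists, the largest rises included genes that were close to absent early. Clec4f, the galactose-binding lectin of Kupffer cells, went from 0.0517, 0.462 and 0.968 CPM to 0.458, 11, 26.3, 15.9 and 4.57 CPM, by 4.68 ± 0.84 (adjusted p 0.0158). Its late values covered a wide span, with library 30-31 at an early level. Ocm2, an oncomodulin calcium-binding protein known from macrophages, went from 0.259, 0.427 and 1.84 CPM to 1.09, 19.5, 19.6, 11.1 and 22.9 CPM, by 4.53 ± 0.71 (adjusted p 0.00921). Here too only library 30-31 overlapped the early group. Cpne5, a calcium-dependent membrane-binding protein, went from 0.129, 0.44 and 0.472 CPM to 2.86, 4.63, 10.6, 9.06 and 6.34 CPM, by 4.07 ± 0.38 (adjusted p 3.6e-04), without overlap. Ocm2 and Cpne5 held. Ly49i4, a lectin-like natural killer receptor, rose by 4.31 but sat at 29.2 CPM in library 30-31, 0.826 and 0.381 CPM in libraries 32 and 35 and 10.7 and 9.15 CPM in 33 and 34. It lost the threshold in 8 leave-outs (highest adjusted p 0.0776 without library 11), and its family holds close copies.

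Several of these rises were in ion channels and adhesion genes. Gja3, a gap junction connexin, had 7 counts over the early libraries and 152 over the late ones, a log2 difference of 4.40 ± 0.42 (adjusted p 4.38e-04). Asic2, an acid-sensing sodium channel, had 22 and 325 counts (3.90 ± 0.56, adjusted p 0.00638), and Scn10a, a voltage-gated sodium channel of sensory neurons, had 14 and 169 (3.61 ± 0.50, adjusted p 0.00544). Tmprss9, a membrane serine protease, had 11 and 152 counts (3.77 ± 0.49, adjusted p 0.00391). All 4 held, and no late library overlapped the early ones. Lrrtm4, a synaptic adhesion protein, rose by 3.88 ± 0.58 (adjusted p 0.00745), with library 30-31 at 0.687 CPM within the early range, and held.

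Among the smallest p-values of the remaining genes, Esr1, the estrogen receptor alpha, rose from 3.52, 3.75 and 4.71 CPM to 12.8, 24.2, 35, 50.3 and 22.1 CPM, by 2.88 ± 0.29 (adjusted p 6.11e-04). Tmem45b, a transmembrane protein, rose from 1.94, 2.93 and 3.86 CPM to 10.4, 13.2, 17.2, 15.7 and 13.9 CPM, by 2.30 ± 0.20 (adjusted p 2.33e-04). Ass1, argininosuccinate synthase of arginine recycling, rose from 21.9, 23.6 and 26.5 CPM to 34.9, 39.1, 40.1, 35 and 37.5 CPM, by 0.66 ± 0.07 (adjusted p 5.64e-04). The late libraries lay above all early ones in each gene, and all 3 held. In air Ass1 fell, from 35.3 to 43.4 CPM early to 20.2 and 24.6 CPM late, so the late silica level was near the early air level.

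The other large falls were of genes with varied roles. Fbp1, a gluconeogenesis enzyme expressed in monocytes and macrophages, went from 2.26, 3.53 and 4.96 CPM to 1.72, 0.207, 0.653, 0.93 and 1.08 CPM, by -1.99 ± 0.41 (adjusted p 0.0236), and lost the threshold in 5 leave-outs (highest 0.0602 without library 34). Atp8b3, a phospholipid flippase, fell by 1.58. Cbs, cystathionine beta-synthase, fell by 1.36 and lost it in 8 (highest 0.0903 without library 35). C2cd4b, an inflammation-induced nuclear protein, fell from 13, 15.9 and 22.6 CPM to 6.12, 5.04, 9.2, 6.41 and 8.82 CPM, by 1.23 ± 0.20 (adjusted p 0.00824), and held. Ccno, a cyclin of multiciliated cell formation, fell by 1.16 and held. Kcnh1 (a potassium channel), Tmc5 (a transmembrane channel-like protein) and Gata4 (a transcription factor) fell by 1.12, 1.08 and 1.06, and lost the threshold in 4, 7 and 5 (highest 0.0599, 0.0843 and 0.0671).

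Proliferation, stress and other lists showed few or no calls in silica lungs. Of 27 cell-cycle genes, 0 passed in either direction, with a median of 0.13 that was -0.10 without library 30-31. Mki67, a marker of dividing cells, was at 47.8, 56 and 88.7 CPM early and at 120, 64, 42.9, 56.5 and 44.6 CPM late, a difference of 0.15 (-0.37 to 0.67) that turned to -0.19 without library 30-31. The 20 immediate early genes had 0 calls, with Fos at 15.8 to 213 CPM early and 17.9 to 91.3 CPM late. None of 14 unfolded protein response genes passed (median 0.30), and 1 of 11 heat shock genes did, the chaperone Dnaja1 (0.37, lost in 4, highest 0.0635). The 12 ciliated cell entries, 7 erythroid, 6 platelet, 10 heart and skeletal muscle, 5 mesothelial and 2 basal cell genes had 0 calls, and 1 of 2 adipocyte genes passed (the lipid droplet protein Cidec, 1.11, lost in 6, highest 0.0638). Of 15 p53 target and senescence genes, Cdkn1a alone passed.

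Air lungs were compared between the same times to show where the silica lungs differed. Their 2 late libraries, each the average of a near-identical pair, were unlike every other lung group, with natural killer genes a median of 2.90 higher than in early air lungs and cell-cycle genes 2.33 higher. In air, 6882 of 16568 genes passed (41.5%), 3725 higher (22.5%) and 3157 lower (19.1%). The time difference in silica minus that in air passed for 4437 genes (26.8%), 2014 positive (12.2%) and 2423 negative (14.6%). Without the late air library 19-24 these totals were 3644 and 1641. Falls in silica were mostly shared. Of the 330 genes lower late in silica, 251 (76.1%) were also called lower in air, against 19.1% of all genes. These are 7.95% of air's list, and 3 (0.909%) were called higher. Of the 362 genes higher late in silica, 114 (31.5%) were also called higher in air, against 22.5% of all genes, or 3.06% of air's list, and 49 (13.5%) were called lower. For 172 of the rises (47.5%) the time difference differed between silica and air in the direction of the silica change. The same held for 23 of the falls (6.97%). It differed in the direction against the silica change for 53 of the rises and for 65 of the falls. Of all genes, 12.2% passed as positive and 14.6% as negative, and the silica change is itself part of this difference.

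**Figure D5:**
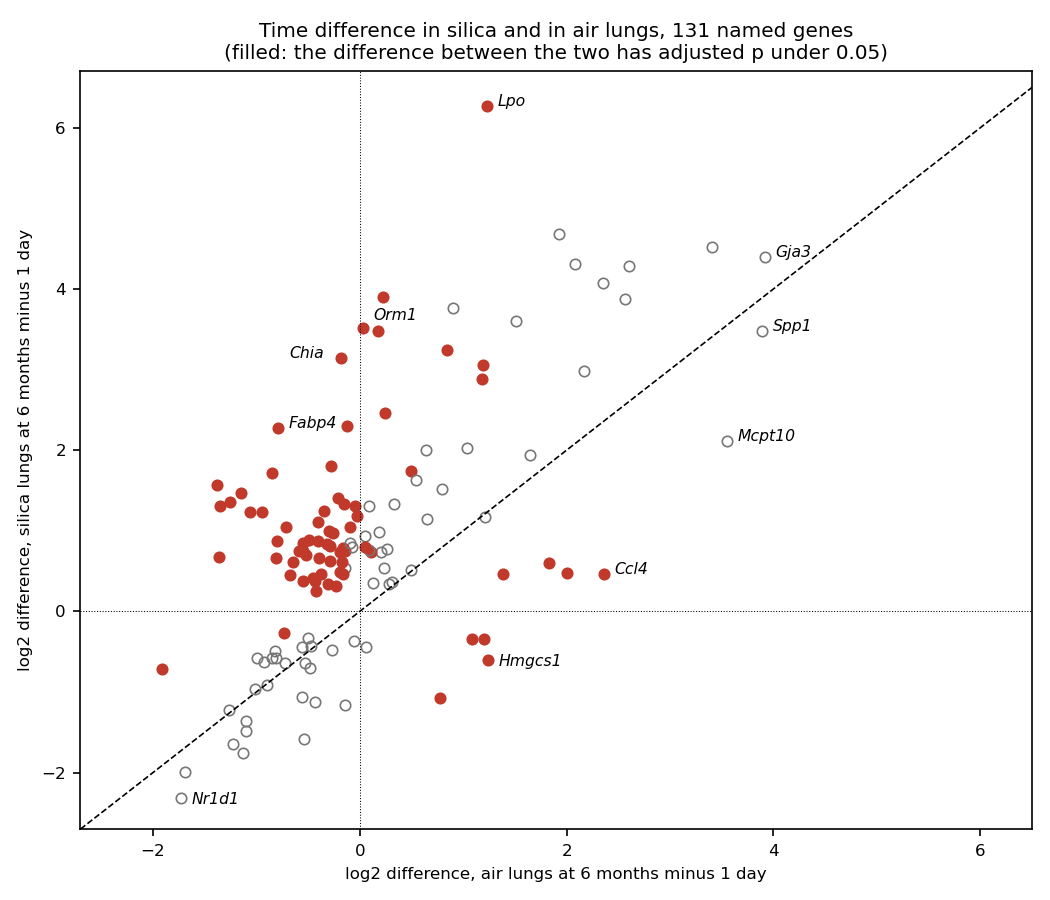
Time difference (log2, 6 months minus 1 day) in silica lungs against that in air lungs for the 131 named genes that passed in silica, with the dashed line where both are equal. Filled points, 70 in all, passed an adjusted p of 0.05 for the difference between silica and air, against 26.8% of all genes. Lpo, Chia and Fabp4 lie far above the line, Spp1 and Nr1d1 near it, and Hmgcs1 and Ccl4 below it.

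By list, the split followed the same lines. Among genes that rose in silica, the largest excesses over air were those of Lpo, whose time difference was 5.03 larger in silica than in air (adjusted p 1.09e-04), Asic2 (3.66, adjusted p 0.0223), Orm1 (3.46, adjusted p 0.00436), Chia (3.31, adjusted p 1.44e-04), Retnla (3.29, adjusted p 0.0122) and Fabp4. Apoe fell in air and rose in silica, a difference of 1.76 (adjusted p 6.68e-04), but its fall in air was lost without late air library 19-24 (adjusted p 0.251). T cell genes had a median of -0.82 in air and 0.65 in silica, and Foxp3 differed by 2.29 (adjusted p 5.04e-04). The 19 T cell genes were split, with 4 called higher and 11 lower in air. Their difference between silica and air passed as positive for 10 and as negative for 4. In air S100a8 and S100a9 were called lower, a call that S100a8 lost without either late air library and S100a9 in 4 of 6 leave-outs (highest adjusted p 0.201 and 0.235). Their time differences were 2.6 and 2.596 larger in silica (adjusted p 0.00225 and 0.00181). For Lpo, Chia, Retnla and Fabp4 the late air levels were 1.36, 126, 4.86 and 7.6 CPM at most. Each of these genes kept the threshold for the difference without late air library 19-24 and without 20-25, except Retnla (3.03, adjusted p 0.0975) and Asic2 (3.23, adjusted p 0.122), both without 19-24. Of the 131 named genes that passed in silica, 70 passed for the difference between silica and air, against 26.8% of all genes. The silica change they were named for is part of that difference, so a higher share follows in part from the choice. That difference did not pass for the 7 clock genes called, Spp1, and the endothelial genes Kdr (0.29, adjusted p 0.326) and Ednrb (0.40, adjusted p 0.0938). Rises without it included Cd5l (0.80, adjusted p 0.471), Cpne5 (1.71, adjusted p 0.0544), Clec4f (adjusted p 0.192), Ccl1 (0.671), Bpifb1 (0.842) and Duox1 (0.208). Cd5l and Cpne5 were called higher in air lungs too, by 2.17 and 2.35. So were Ocm2, Lrrtm4, Gja3 and Esr1, calls lost in 1, 1, 4 and 2 of 6 leave-outs. Over the leave-outs their air values were 1.334 to 4.213, 2.368 to 3.229, 0 to 4.763 and 1.102 to 1.232. The difference between silica and air passed for Esr1 and did not pass for Ocm2, Lrrtm4 or Gja3. Without late air library 20-25 the air value of Cd5l was 1.37.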

How the data were processed

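Lung RNA of silica and air rats was isolated with a fibrous-tissue kit and went into stranded libraries, per the labels' protocols. Salmon 1.10.1, STAR 2.6.1d, Trim Galore 0.6.7, cutadapt 3.4, bcl2fastq 2.19 and the build Rnor_6.0 are listed, without roles, per the submitters' processing notes; which gene annotation was used is not stated there. The authors deposited estimated counts per gene, 1 table for each tissue and time, not scaled to depth or length, and reads that fit several targets are divided, so a count need not be whole (tolerance 1e-06). Every column was matched by name, with 0 unmatched; blood was not used here.

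Counts were rounded. A pair of libraries in which under 15% of genes differed (chi-square test, genes whose 2 counts averaged 20 or more) was averaged and counted as 1 sample: 5 pairs at 9.58% to 11.5% against 22.8% to 74.2% in the others. The labels do not say that samples are separate animals, so p-values cover the spread among these samples, which may be technical. The silica libraries were fitted alone with edgeR 4.0.16 in R 4.3.3 (filterByExpr with a minimum count of 10 and total of 15, TMM factors of 0.935 to 1.02, robust quasi-likelihood test, Benjamini-Hochberg adjustment, threshold 0.05). Air lungs and the difference between silica and air came from 1 fit of 4 lung groups, whose TMM factors also scale the printed CPM. Errors are SE and intervals 95%. Total counts of 13369309 to 24638427 put 3 counts at 0.122 to 0.224 CPM, and such floors cover counting error only. The fit was also run on simulated data with the same dispersion for every gene and no library set apart. That run cannot speak to the dependence on single libraries seen here.

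Named genes passed the threshold with a mean of at least 1 CPM and were the 12 largest rises, the 12 largest falls, the 8 smallest p-values of the rest, list members that passed (the 4 largest of each list first) and a panel; 53 genes known only by provisional names were left out of the ranking. The 49 lists of 678 genes, the panel and the comparison were chosen with earlier results of these data known. Names not found included Fasl, Jchain and Mt1, and a few list members are not reported here. Alternatives were RLE size factors, no filter, DESeq2 1.42.0, separate libraries, a joint fit, a 1.5-fold minimum and each library left out. Promoters are from RefSeq, build GRCr8.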

Additional observations from a re-analysis of the deposited data

Results flagged for a closer look

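In 24 of the 302 gene and group pairs checked (7.95%), 1 silica library stood far from the other libraries of its group; chance gives about 1 in 20. Library 30-31 held 6 of these at 6 months: Alox15 at 36.6 CPM against 18.6 CPM in the nearest library, Mki67 at 120 against 64 CPM, Fos at 91.3 against 37.7 CPM and Kcnh1 at 1.72 against 1.03 CPM were high, and Cd8b at 3.09 against 4.87 CPM and Il1rn at 70.6 against 109 CPM were low. Library 35 was high in Cd5 (19.8 against 12.6 CPM), Gata4 (1.4 against 0.785 CPM) and Nr1d1 (41.7 against 18.3 CPM). Library 34 was low in Gbp2 (148 against 187 CPM), and library 33 was high in Timp1 (53.5 against 35.5 CPM).

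Among the 1-day libraries, number 13 was high in the calprotectin genes S100a8 (125 against 88.6 CPM) and S100a9 (473 against 348 CPM) and in Plin2 (237 against 209 CPM), and had 0 CPM of A2m against 0.931 CPM. Library 10 was high in Fos (213 against 44.8 CPM) and Mki67 (88.7 against 61.1 CPM) and low in Lta4h (151 against 166 CPM). Library 12 was high in Alox12 (9.37 against 7.16 CPM) and Ocm2 (1.84 against 0.645 CPM), and library 11 was high in Idi1 (69.3 against 56 CPM) and low in Ms4a7 (1.01 against 1.61 CPM). Cpne5 was low in library 14 (0.129 against 0.414 CPM) and Irf8 in library 15 (70.4 against 79.2 CPM).

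For 78 of the genes checked the time difference in silica lungs differed from that in air lungs (edgeR's test of the difference, adjusted p under 0.05). Of these, 70 were positive and 8 negative, against 2014 positive and 2423 negative over all 16568 genes. The genes checked were largely named for passing in silica, and the silica change is part of this difference. Their lean to positive values therefore follows in part from how they were chosen. All values are log2 time differences in silica minus those in air, so a positive value can also come from a larger fall in air. Emp2, for example, was at -0.27 in silica and -0.73 in air. Without the late air library 19-24, 36 of the 78 passed. Epithelial, macrophage and lipid genes with a positive value were Lpo (5.03), Chia (3.31), Retnla (3.29), Fabp4 (3.06), Alox12 (2.16), Apoe (1.76), Alox15 (1.61), Cidec (1.51), Siglec1 (1.35), Ctss (1.27), Clec7a (1.24), Pparg (1.09), Arg1 (1.03), Olr1 (0.92), Acp5 (0.88), Abcg1 (0.85), Plin2 (0.83), Mmp14 (0.80), Timp1 (0.75), Plaur (0.74), Lta4h (0.66), Sftpd (1.19), Scgb1a1 (1.06), Ager (0.84) and Emp2 (0.45). Complement, acute-phase and oxidant response genes were Orm1 (3.46), C2 (1.58), Cfd (1.47), Cfb (1.28), Cfi (1.23), C4a (1.20), C4b (1.13), C3 (1.12), Cfp (1.11), Lbp (1.05), Fcna (0.94), Fgg (0.91), C1s (0.54), Ftl1 (1.14), Srxn1 (0.78) and Hmox1 (0.62). Without library 19-24, C2 was at 1.477, Cfd at 1.113, Cfb at 1.193, Cfi at 1.087 and C4a at 1.028. C4b, C3, Cfp and C1s were then at 0.768, 0.884, 0.969 and 0.245.

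Immune cell genes were Mzb1 (2.93), Ctla4 (2.65), S100a8 (2.6), S100a9 (2.596), Foxp3 (2.29), Cd5 (2.02), Cd3e (1.75), Cd8b (1.66), Il1b (1.61), RT1-Db1 (1.37), Il1rn (1.36), Cd86 (1.32), RT1-Da (1.28), Ms4a7 (1.22), RT1-Bb (1.21), Cd4 (0.92), Il4r (0.66), Cxcl16 (0.64) and Itgae (0.62). Mast cell genes were Fcer1a (2.55), Tpsb2 (2.38), Cma1 (2.20), Ms4a2 (2.07) and Cpa3 (1.85). Without late air library 19-24, which leaves 1 late air sample, these 5 were at 2.302, 1.923, 1.535, 1.89 and 1.49. RT1-Db1, RT1-Da and RT1-Bb were then at 1.169, 1.106 and 1.01, so the values of both families depend on that library. Asic2 (3.66), Tmem45b (2.41), Esr1 (1.69) and Ass1 (1.46) were positive too. The value of Cd79a, 6.16, rests on 2 late air libraries at 0 counts, so it depends on the prior count and is no bound. Negative values were those of Mki67 (-2.64), Ccl4 (-1.91), Tmc5 (-1.87), Hmgcs1 (-1.85), Irf8 (-1.54), Idi1 (-1.44), Tyrobp (-1.24) and Laptm5 (-0.94). Without library 19-24, Irf8 was at 0.042 and Mki67 at -2.503.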

How the results depend on the processing

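The number of genes that passed between the times in silica lungs, 692 in the main analysis, was 667 with RLE size factors, 531 without the low-count filter, 720 with near-identical libraries kept apart, 1705 by DESeq2, 1598 in the fit of all 4 lung groups, 298 with at least 1.5-fold and 1133 without libraries 10 and 30-31 together. Leaving out 1 library gave 188 to 1572 genes. The share that was higher, 52.3%, was 70.5% with at least 1.5-fold. Of the 131 named genes that passed, 129 kept the threshold with RLE size factors, 109 without the filter, 131 by DESeq2, 103 with libraries apart, 126 in the 4-group fit and 59 to 128 with 1 library left out, and none changed sign. In air lungs the 6882 genes became 3644 to 6810 with 1 library left out, and the 4437 genes of the difference between silica and air became 1641 to 5569; the late air library 19-24 gave the lowest count of both, which then rest on 1 late air sample assumed to vary like the other groups.

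Among the genes named, changes of sign were limited to values that had not passed in silica and to 2 values involving air. With 1 library left out, Ager ran from -0.074 to 0.144, Col1a1 from -0.037 to 0.119, Fos from -1.172 to 0.385, Lcn2 from -0.125 to 0.325 and Mki67 from -0.186 to 0.295, and without libraries 10 and 30-31 together Col1a1 was at -0.035 and Mki67 at -0.039. Irf8 in silica minus air ran from -2.244 to 0.042, and the air difference of Gja3, whose early air libraries were all at 0, from 0 to 4.763. The cause was not tested.

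No paired analysis was possible because the silica lungs of the 2 times share no replicate numbers. Depth limits the genes with few early counts, such as Ccl1 and Gja3 with 7 each, whose differences are imprecise.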
